A study of Malus domestica with 6 samples.

Results

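The deposited table lists 1261 apple (Malus domestica) gene models that differed between corky and smooth fruit skin. Of these, 55 were annotated by domain or description as disease resistance genes, mainly of the NBS-LRR and TIR families. A gene model was included where its protein domains held NB-ARC (PF00931) or TIR (PF01582), or where its description named disease resistance or TIR-NBS. The domains alone chose 3, the description alone 15 and both 37. RNA was sequenced from the outer skin (exocarp) of 6 varieties sampled in the orchards of a single research centre in October 2012. The 3 russeted varieties, St Edmund Pippin, Reinette Parmentier and Patte de Loup, bore fully russeted fruit, whose skin is rough and corky. The 3 waxy varieties, AG94, AF42 and Gala, bore fully waxy fruit, whose skin is smooth. Each variety gave 1 library, so an SD below is a spread over 3 varieties. The standard error (SE) of a fold change comes from a model fitted to all 6 libraries (edgeR). Its variance estimates draw on other genes too. The effect of skin type and other variety differences cannot be told apart.

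Plants carry large families of intracellular immune receptors, the NLR proteins. Their NB-ARC domain binds nucleotides and acts as a switch, and leucine-rich repeats (LRR) at the C-terminal end take part in recognising pathogen effectors, directly or through guarded host proteins. The N-terminal end sets the class: TIR domains act as NAD-consuming enzymes once the receptor is active, coiled-coil (CC) domains form membrane channels, and the related RPW8 domain marks helper NLRs that act downstream of other receptors. NLR genes sit in clusters of similar copies and vary between plant varieties in number and sequence.

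Of the 55 genes, 41 belonged to the TIR class, by a TIR domain or by the word TIR in the description, and 14 did not. Within the TIR class 25 gene models carried the TIR domain itself, and 16 were named TIR by their Arabidopsis match while only other domains, or none, were annotated on the apple model. Outside the TIR class, 8 models matched AT3G14460 and 3 matched AT3G14470, which are NB-ARC proteins with no TIR domain. A further gene, MDP0000310094, carried RPW8 (PF05659) with NB-ARC. Another 2 models matched AT2G34930, which is described as a disease resistance family LRR protein. These 2 had neither an NB-ARC nor a TIR domain and were included by description alone. The 55 genes matched 19 Arabidopsis genes; whether models with the same match are gene copies or fragments was not tested. The largest groups were 14 models matched to AT5G36930 and 8 matched to AT5G17680, both TIR-NBS-LRR genes. Gene models of the TIR class had a median coding length of 1617 bases (510 to 5208), against 3052.5 bases (1281 to 5190) in the others, and 8 TIR class models carried a TIR domain alone.

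Mapped reads, in units of 1000000, numbered 11.3 to 19.1 in russeted and 9.44 to 16.8 in waxy libraries. The median resistance gene had 125 to 243 total reads in russeted libraries and 25 to 48 in waxy libraries. Russeted exocarp also had more RNA of cork and suberin marker genes, of which 6 of 6 listed models rose (summed level 105 to 530 RPKM in russeted and 16.5 to 61.0 RPKM in waxy varieties), and less of cuticle markers, of which 5 of 6 fell (82.8 to 337 RPKM in russeted and 1169.7 to 2132 RPKM in waxy varieties). Phloem markers rose in 2 of 4 models (50.3 to 102 RPKM in russeted and 15.0 to 30.6 RPKM in waxy varieties) and histone and cyclin genes in 5 of 12 (479 to 798 RPKM in russeted and 189.8 to 373 RPKM in waxy varieties). None of the 4 xylem markers was in the table. Their part in the results below was not tested. In bulk tissue, fewer cells of a type and less RNA per cell cannot be told apart.

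Of the 55 genes, 22 rose, 1 fell and 32 did not pass, with a Benjamini-Hochberg adjusted p under 0.05 in edgeR's quasi-likelihood test as the threshold. The 22 that rose are 40.0% of these genes. Over the whole table, 1246 genes were tested; 19.2% of them rose and 9.31% fell. The authors had selected every gene of the table for a difference on these same libraries, so these shares are descriptions of a selected set and no independent evidence. The log2 fold change of russeted over waxy was above 0 in 54 of the 55 (98.2%), against 73.8% of all tested genes. Its median was 1.73, against 1.19 over all tested genes. With the TMM factors described below it was above 0 in 52 of the 55 and in 754 of the 1246 tested genes. The russeted values lay wholly above the waxy values in 49 of the 55 genes (89.1%), and the same held for 63.1% of all listed genes; they lay wholly below in 1 gene, against 24.3% of all listed genes. Together the 55 genes took 1178, 969.9 and 1169 reads per 1000000 mapped in St Edmund Pippin, Reinette Parmentier and Patte de Loup, against 430.2, 497 and 343 in AG94, AF42 and Gala. In summed RPKM they had 463, 407 and 473 in St Edmund Pippin, Reinette Parmentier and Patte de Loup. Summed cork markers were 105, 351 and 530 RPKM in the same varieties, and a link between the 2 was not tested.

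**Figure D1:**
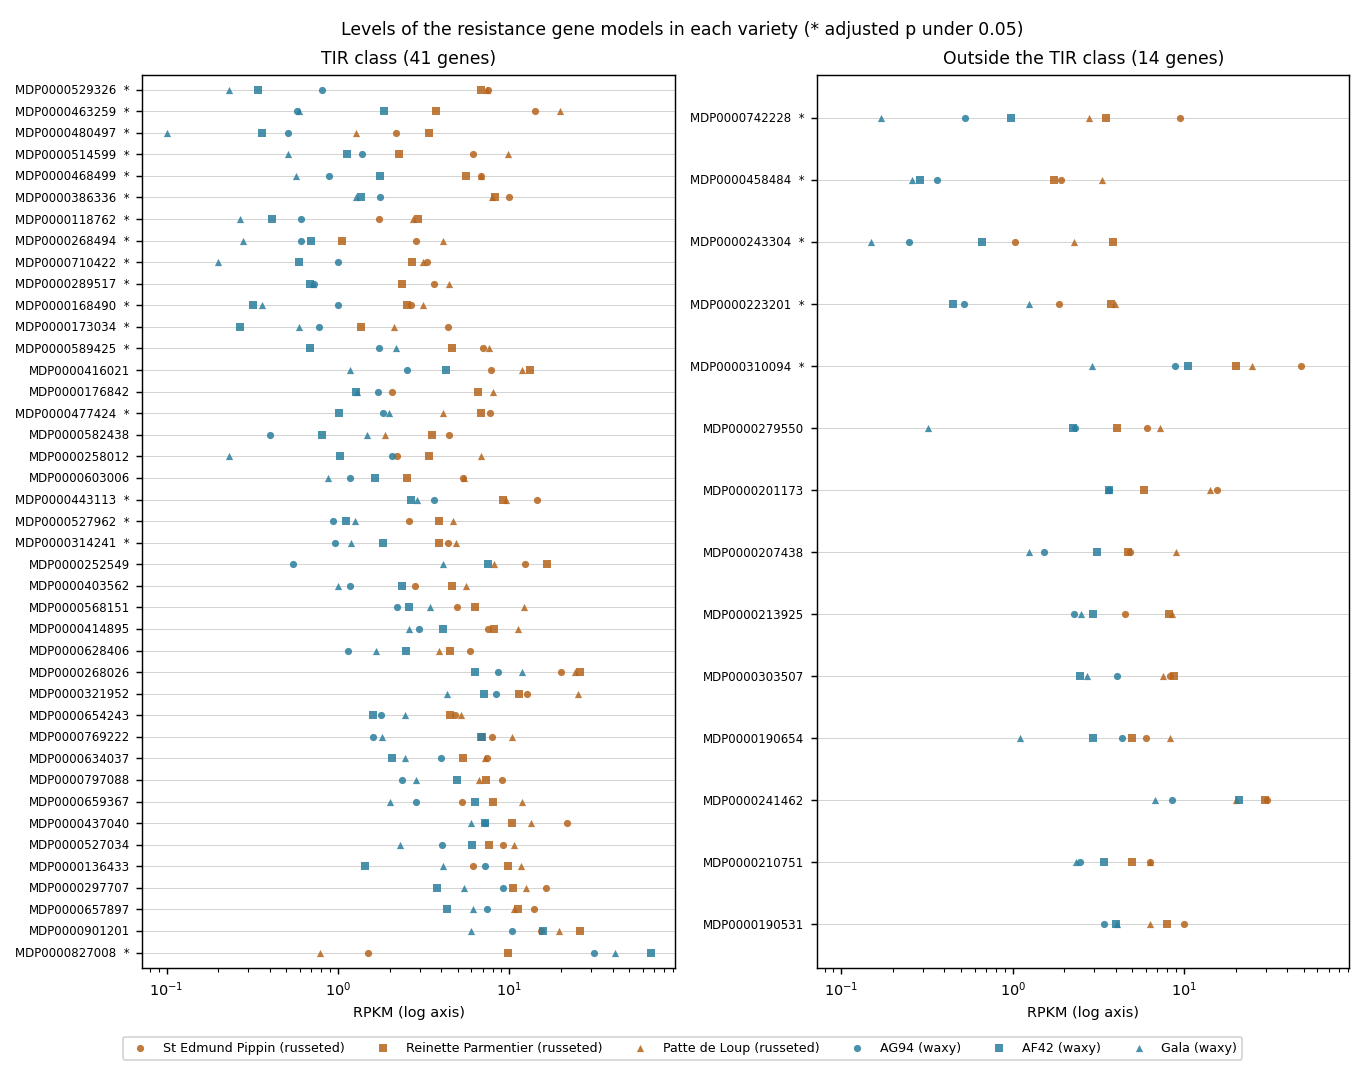
Level of each of the 55 resistance gene models in the 6 varieties, as RPKM on a log axis, with the TIR class on the left and the other genes on the right, sorted by log2 fold change. Brown symbols (russeted) lie wholly to the right of blue symbols (waxy) in 49 genes, and MDP0000827008, at the bottom of the TIR class, is the 1 gene with the reverse order and no overlap.

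The counts above take each library's mapped reads as its size. With TMM factors, which assume that most genes of the table do not differ, the median log2 fold change of all tested genes moved to 0.20 and that of the resistance genes to 0.73. On that scale 3 of the 55 genes rose and 1 fell, against 3.53% risen and 23.8% fallen in the whole table. Relative to the median of all tested genes the resistance genes stood 0.54 higher on the log2 scale with either scaling. TMM factors rescale whole libraries and shift all fold changes by nearly the same amount, so this gap could hardly change and is no separate support. Leaving out 1 variety also lowered the count: 10 rose without St Edmund Pippin, 9 without Patte de Loup, 12 without Reinette Parmentier, 13 without AG94, 12 without AF42 and 10 without Gala. Of all tested genes, the shares that rose and fell in these fits were 12.2% and 5.35% without St Edmund Pippin, 10.8% and 5.85% when Reinette Parmentier was left out, 10.8% and 5.73% without Patte de Loup, 14.6% and 7.84% without AG94, 15.4% and 8.35% without AF42, and 12.7% and 8.04% without Gala. The 5 rises called in each of these 6 fits were MDP0000529326, MDP0000463259, MDP0000386336 and MDP0000118762 of the TIR class and MDP0000458484 outside it.

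Other tools gave higher or lower counts. DESeq2 on mapped reads called 43 of the 55 genes risen, against 43.4% risen and 21.1% fallen of all genes, and with its own size factors it called 6, against 8.82% and 25.6%. Adjustment over the tested genes alone gave 44 rises, against 47.9% risen and 23.3% fallen of all genes. Limma on log2(RPKM + 0.1) called 8 of the 55 risen, against 12.8% risen and 8.56% fallen of all genes. On log2(RPKM + 0.5) it called 17, against 19.7% and 11.8%. Without the low-count filter 22 rose, against 19.4% and 9.44%. With the replicate number as a block 15 rose, against 16.8% and 8.83%.

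In the TIR class 17 of 41 genes rose (41.5%) and 1 fell, with a median log2 fold change of 1.77. Among the others 5 of 14 rose (35.7%) and 0 fell, with a median of 1.68; all 14 had an unadjusted p under 0.05, as did 80.7% of all tested genes, and TMM factors and DESeq2 on mapped reads likewise called 0 of them lower. The classes were not compared by a test, since genes of a family are not replicates. Median levels were 6.44 RPKM in russeted against 1.61 RPKM in waxy exocarp for the TIR class, and 6.30 RPKM in russeted against 2.66 RPKM in waxy exocarp for the others. In all domain groups the log2 fold changes were above 0, apart from that of MDP0000827008. The authors had selected 54 of the 55 genes with a log2 of at least 1 in this direction. This lean was therefore set by the selection and is no result about the domains. Over all tested genes 19.2% rose and 9.31% fell. Of the 17 models with both TIR and NB-ARC, 6 rose (35.3%). Of the 8 with TIR alone 3 rose (37.5%) and 1 fell. Of the 9 with NB-ARC and neither TIR nor LRR, in either class, 7 rose (77.8%). With TMM factors 0 of these 9 rose, where 3.53% of all tested genes did. Without 1 variety 2 to 4 of the 9 rose, with 2 without St Edmund Pippin, Patte de Loup or AF42. Without 1 variety, 1 to 4 of the models with both TIR and NB-ARC rose (1 without Gala), and 1 of those with TIR alone in each of these fits. In these fits 6 to 11 of the TIR class rose (6 without Patte de Loup or Gala) and 2 to 4 of the others (2 without AG94). Of the 6 models with NB-ARC and LRR but no TIR domain 0 rose in edgeR's test. Their log2 fold changes were 1.11 to 1.89, and 5 had an unadjusted p under 0.05. DESeq2 on mapped reads called 4 of them higher, against 43.4% of all genes.

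**Figure D2:**
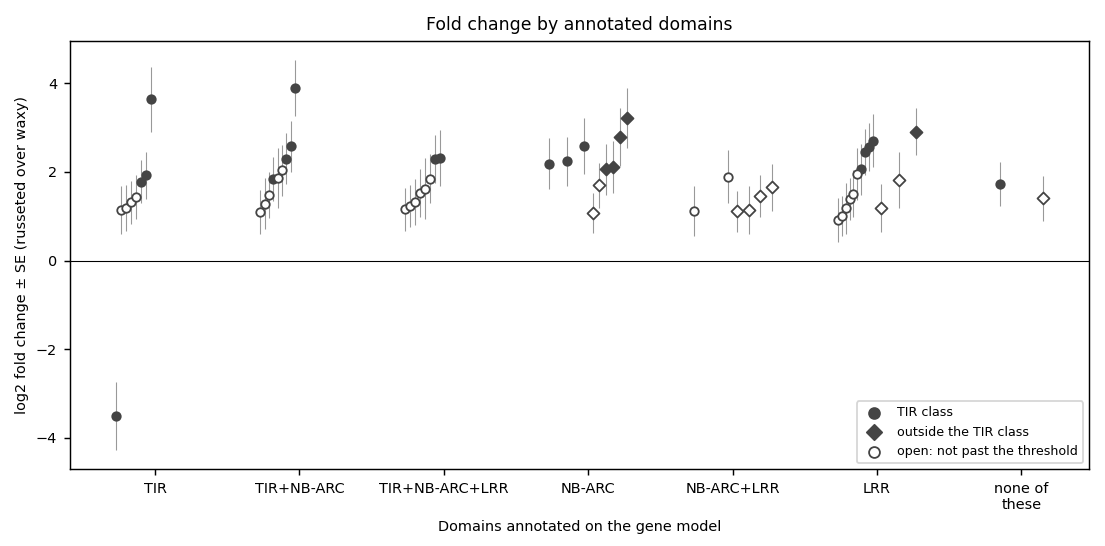
Log2 fold change (russeted over waxy) with its standard error for each gene, grouped by the domains annotated on the model. Circles are the TIR class, diamonds the other genes, and filled symbols are past the threshold. All groups lie above 0 apart from MDP0000827008 at -3.50 in the group with a TIR domain alone.

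MDP0000529326, a TIR and NB-ARC gene matched to AT3G25510, had the largest rise. Its level was 7.53 RPKM in St Edmund Pippin, 6.81 in Reinette Parmentier and 7.43 in Patte de Loup, against 0.81 in AG94, 0.34 in AF42 and 0.23 in Gala. Russeted values were close together and far above the waxy ones. The means were 7.26 ± 0.39 RPKM for russeted varieties and 0.46 ± 0.308 RPKM for waxy ones (SD, n = 3 each), with a log2 fold change of 3.89 ± 0.63 (SE, edgeR adjusted p = 0.00346). The waxy values rest on 19, 5 and 3 reads in AG94, AF42 and Gala, and 33.7% of its reads were unique to it.

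MDP0000386336, matched to the TIR-NBS-LRR gene AT1G27180 and annotated with LRR alone, was also even within each phenotype. It had 10, 8.29 and 7.94 RPKM in St Edmund Pippin, Reinette Parmentier and Patte de Loup, against 1.76, 1.37 and 1.27 RPKM in AG94, AF42 and Gala. No russeted value came near a waxy one (log2 fold change 2.56 ± 0.53, SE, edgeR adjusted p = 0.0119), and 88.3% of its reads were unique. With TMM factors the call of MDP0000386336 was lost (edgeR adjusted p = 0.112).

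MDP0000289517, which carries TIR, NB-ARC and LRR and matches AT4G12010, had close waxy values. It had 3.62, 2.37 and 4.46 RPKM in St Edmund Pippin, Reinette Parmentier and Patte de Loup, against 0.73, 0.69 and 0.72 RPKM in AG94, AF42 and Gala. The log2 fold change was 2.29 ± 0.54 (SE, edgeR adjusted p = 0.0195). It lost its call without Patte de Loup (adjusted p = 0.0781), AG94 (0.0543), AF42 (0.0546) or Gala (0.0547). The second model matched to AT4G12010, MDP0000901201, was among the 5 most abundant resistance genes and was not past the threshold. Its values of 15.4, 25.8 and 19.6 RPKM in St Edmund Pippin, Reinette Parmentier and Patte de Loup overlapped with 10.4, 15.7 and 6.01 RPKM in AG94, AF42 and Gala. Its log2 fold change was 0.92 ± 0.50 (SE, edgeR adjusted p = 0.458), and -0.039 with TMM factors.

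The 14 models matched to AT5G36930 were the largest set with 1 match, and 8 of them rose (57.1%, against 19.2% of all tested genes). Their median log2 fold change was 2.06, with a range of 1.10 to 2.70 over the set. With TMM factors 0 of the 14 rose, where 3.53% of all tested genes did. Without 1 variety the count was 2 without St Edmund Pippin, 4 without Reinette Parmentier, 7 without AG94, and 3 without Patte de Loup, AF42 or Gala. MDP0000118762 had 1.74, 2.92 and 2.74 RPKM in St Edmund Pippin, Reinette Parmentier and Patte de Loup, against 0.61, 0.41 and 0.27 RPKM in AG94, AF42 and Gala. The russeted values were all above the waxy ones, and 98.8% of the reads were unique (log2 fold change 2.45 ± 0.52, SE, edgeR adjusted p = 0.013). With TMM factors the call of MDP0000118762 was lost (edgeR adjusted p = 0.16). MDP0000480497 had 2.19, 3.40 and 1.27 RPKM in the same russeted varieties, against 0.51, 0.36 and 0.10 RPKM in AG94, AF42 and Gala, the last from 1 read. It lost its call without St Edmund Pippin (edgeR adjusted p = 0.0505) or Reinette Parmentier (0.0601). MDP0000468499 had 6.87, 5.59 and 6.86 RPKM in russeted varieties, against 0.89, 1.77 and 0.57 RPKM in AG94, AF42 and Gala. Its call was lost without Gala (edgeR adjusted p = 0.0591), and 36.8% of its reads were unique.

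MDP0000514599, annotated with NB-ARC alone, varied more between russeted varieties than the other models of this match named here. It had 6.16 RPKM in St Edmund Pippin, 2.27 in Reinette Parmentier and 9.82 in Patte de Loup, against 1.39, 1.13 and 0.51 RPKM in AG94, AF42 and Gala. Its log2 fold change was 2.58 ± 0.63 (SE, edgeR adjusted p = 0.0227). The edgeR call was lost without St Edmund Pippin (adjusted p = 0.0689), Patte de Loup (0.121), AF42 (0.0505) or Gala (0.066). MDP0000173034, also with NB-ARC alone, was among the 3 genes with the fewest reads, 143 over 6 libraries. It had 4.37, 1.37 and 2.12 RPKM in St Edmund Pippin, Reinette Parmentier and Patte de Loup, against 0.78, 0.27 and 0.59 RPKM in AG94, AF42 and Gala. Its log2 fold change was 2.19 ± 0.58 (SE, edgeR adjusted p = 0.0375), lost without St Edmund Pippin (0.177), Patte de Loup (0.0551), AF42 (0.13) or Gala (0.065). The most abundant model of this match, MDP0000268026, was not past the threshold, although its phenotypes did not overlap. It had 20.0, 25.8 and 24.1 RPKM in the russeted varieties, against 8.55, 6.27 and 11.9 RPKM in AG94, AF42 and Gala, and its log2 fold change was 1.39 ± 0.48 (SE, edgeR adjusted p = 0.112).

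The 8 models matched to AT5G17680 had 2 rises (25%, near the 19.2% of all tested genes) and log2 fold changes of 1.16 to 2.31. Their russeted values were above the waxy values in all 8. The same held for 63.1% of all listed genes, and phenotypes did not overlap in 87.5% of them. With TMM factors 0 of the 8 rose, where 3.53% of all tested genes did, and without 1 variety 0 to 1 of the 8 rose. One of the 2, MDP0000268494, had the lowest share of unique reads of all 55 genes, 24.8%. It had 2.84, 1.05 and 4.09 RPKM in St Edmund Pippin, Reinette Parmentier and Patte de Loup, against 0.61, 0.70 and 0.28 RPKM in AG94, AF42 and Gala. Its call in total reads (log2 fold change 2.31 ± 0.62, SE, edgeR adjusted p = 0.0401) was absent in unique reads (1.40, adjusted p = 0.206). It was also lost without Patte de Loup (adjusted p = 0.185), St Edmund Pippin (0.107), AG94 (0.0695), AF42 (0.0596) or Gala (0.129). MDP0000527962, a model of 510 bases with a TIR domain alone that matches AT5G18370, had the fewest reads of all, 114 over 6 libraries. It had 2.60, 3.91 and 4.68 RPKM in the russeted varieties, against 0.94, 1.12 and 1.25 RPKM in AG94, AF42 and Gala. Its log2 fold change of 1.77 ± 0.49 (SE, edgeR adjusted p = 0.0433) was past the threshold with 6 libraries and in none of the 6 fits without 1 variety (0.0636 to 0.179).

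The single fall and 1 of the largest rises were both matched to RPP1 (AT3G44480), an Arabidopsis TIR receptor that recognises a downy mildew effector. Both models are short, 591 bases for MDP0000827008 and 720 bases for MDP0000463259, and both carry a TIR domain alone. MDP0000827008 had 1.49, 9.77 and 0.79 RPKM in St Edmund Pippin, Reinette Parmentier and Patte de Loup, against 31.3, 66.6 and 41.6 RPKM in AG94, AF42 and Gala. The waxy values were all above the russeted ones, and Reinette Parmentier was the highest russeted variety. The means were 4.02 ± 4.99 RPKM for russeted varieties and 46.5 ± 18.2 RPKM for waxy ones (SD, n = 3 each), with a log2 fold change of -3.50 ± 0.77 (SE, edgeR adjusted p = 0.0145). Without St Edmund Pippin the call was lost (adjusted p = 0.0856); with TMM factors the log2 fold change was -4.43.

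MDP0000463259 had the reverse order. It had 14.1, 3.72 and 19.6 RPKM in St Edmund Pippin, Reinette Parmentier and Patte de Loup, against 0.58, 1.85 and 0.59 RPKM in AG94, AF42 and Gala. Reinette Parmentier was the lowest russeted variety and AF42 the highest waxy one. The log2 fold change was 3.64 ± 0.74 (SE, edgeR adjusted p = 0.00993), and TMM factors kept the call (adjusted p = 0.0402). The ratio of MDP0000827008 to MDP0000463259, both in RPKM, was 0.106, 2.63 and 0.0402 in the russeted varieties, against 54.0, 36.02 and 70.5 in the waxy ones. Their summed level was 15.6, 13.5 and 20.4 RPKM in the russeted varieties, against 31.9, 68.5 and 42.2 RPKM in AG94, AF42 and Gala. The 2 models were called in opposite directions on these same libraries. The difference in ratio was fixed by those calls and is no separate result. In the waxy varieties nearly all of the sum was MDP0000827008. Most reads were unique, 94.5% for MDP0000827008 and 77.6% for MDP0000463259.

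**Figure D3:**
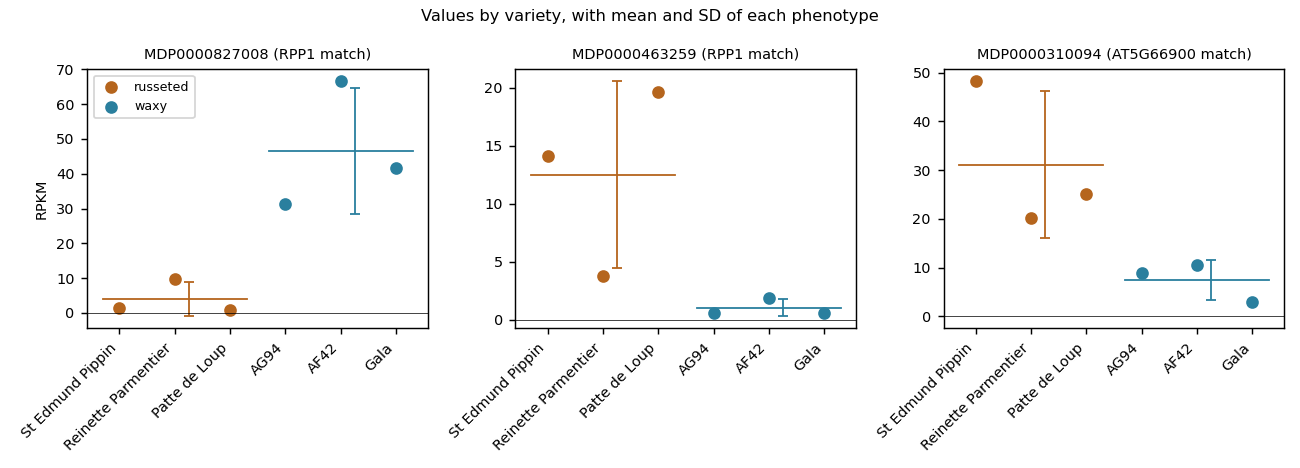
RPKM by variety for the 2 models matched to RPP1 and for the RPW8 gene MDP0000310094, with the mean (line) and SD (bar) of each phenotype (n = 3 each). MDP0000827008 is high in the waxy varieties, at 31.3 to 66.6 RPKM, where MDP0000463259 is at or under 1.85 RPKM; in Reinette Parmentier the 2 models are nearest to each other.

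Outside the TIR class the most abundant gene that rose was MDP0000310094, the single model with RPW8, the domain of helper NLRs. It had 48.2, 20.1 and 25 RPKM in St Edmund Pippin, Reinette Parmentier and Patte de Loup, against 8.91, 10.6 and 2.90 RPKM in AG94, AF42 and Gala. Russeted values were all above waxy values, and the lowest of them was 20.1 RPKM. The means were 31.1 ± 15.0 RPKM for russeted varieties and 7.48 ± 4.05 RPKM for waxy ones (SD, n = 3 each), with a log2 fold change of 2.05 ± 0.58 (SE, edgeR adjusted p = 0.0492). The call stood close to the threshold and was lost without any 1 of the 6 varieties (adjusted p = 0.0525 without AF42 to 0.183 without St Edmund Pippin).

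Of the 8 models matched to AT3G14460, 2 rose (25%, near the 19.2% of all tested genes). Russeted values were above waxy values in all 8, against 63.1% of all listed genes. With TMM factors 0 of the 8 rose, where 3.53% of all tested genes did. Only 1 of the 8 rose without St Edmund Pippin, Patte de Loup or AG94. MDP0000742228 had 9.43, 3.52 and 2.78 RPKM in St Edmund Pippin, Reinette Parmentier and Patte de Loup, against 0.53, 0.98 and 0.17 RPKM in AG94, AF42 and Gala. St Edmund Pippin was the highest by far, and without it the call was lost (log2 fold change 3.21 ± 0.68, SE, edgeR adjusted p = 0.013 with all 6 varieties and 0.07 without St Edmund Pippin). MDP0000223201 had 1.87, 3.73 and 3.94 RPKM in the russeted varieties, against 0.52, 0.45 and 1.25 RPKM in AG94, AF42 and Gala. Its call (log2 fold change 2.12 ± 0.58, SE, edgeR adjusted p = 0.0442) held without St Edmund Pippin or Gala and was lost without either Reinette Parmentier (0.143) or Patte de Loup (0.145), and likewise without AG94 (0.142) or AF42 (0.131).

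Of the 3 models matched to AT3G14470, MDP0000243304 rose. It had 1.03, 3.86 and 2.28 RPKM in St Edmund Pippin, Reinette Parmentier and Patte de Loup, against 0.25, 0.66 and 0.15 RPKM in AG94, AF42 and Gala. Reinette Parmentier was highest here (log2 fold change 2.78 ± 0.65, SE, edgeR adjusted p = 0.0181), and the call was lost without it (0.0827) or without AG94 (0.0596). MDP0000241462 of the same match was among the 5 most abundant resistance genes, and its phenotypes overlapped. It had 30.6, 29.6 and 20.1 RPKM in the russeted varieties, against 8.54, 20.9 and 6.79 RPKM in AG94, AF42 and Gala (log2 fold change 1.15 ± 0.54, SE, edgeR adjusted p = 0.316).

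MDP0000458484, an LRR gene matched to AT2G34930 with no NB-ARC domain, rose in every fit that left out a variety. It had 1.92, 1.74 and 3.34 RPKM in St Edmund Pippin, Reinette Parmentier and Patte de Loup, against 0.36, 0.29 and 0.26 RPKM in AG94, AF42 and Gala. The log2 fold change was 2.91 ± 0.54 (SE, edgeR adjusted p = 0.00667), and TMM factors kept the call (adjusted p = 0.0398). The waxy values rest on 10, 5 and 4 reads in AG94, AF42 and Gala, and the authors' deposited false discovery rate was 0.183.

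Besides the 2 models matched to RPP1, 3 genes carry Arabidopsis symbols; they were chosen after their values were seen, and these 3 were not past the threshold. MDP0000657897, matched to SNC1, a TIR receptor whose overactive form gives constant defence, had a mean of 11.97 ± 1.71 RPKM in russeted varieties and of 5.96 ± 1.56 RPKM in waxy ones (SD, n = 3 each) (log2 fold change 1.00 ± 0.46, SE, edgeR adjusted p = 0.295, and -0.025 with TMM factors). MDP0000176842, matched to WRR4, which acts in white rust resistance, had a mean of 5.55 ± 3.09 RPKM in russeted varieties and of 1.43 ± 0.246 RPKM in waxy ones (edgeR adjusted p = 0.0632). MDP0000527034, matched to RLM3, a TIR protein of resistance to fungi, had a mean of 9.14 ± 1.54 RPKM in russeted varieties and of 4.12 ± 1.87 RPKM in waxy ones (edgeR adjusted p = 0.313).

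Resistance genes shared many of their reads. A read that fits more than 1 gene is in the total count of a gene and not in its unique count. The median share of unique reads was 77.7% in the resistance genes, against 93.6% over all listed genes, and it was 81.0% in the TIR class and 77.0% in the others. More than 90% of reads were unique in 12 of 55 resistance genes and in 691 of 1261 listed genes. Fewer than 50% were unique in 9 resistance genes (16.4%), 8 of them in the TIR class, against 20.1% of all listed genes. Of these 9 genes 8 rose, and 14 of the other 46. In unique reads 6 of the 8 of them that could be tested rose, and 9 of the other 46. In the other listed genes split at the same unique share, 15.6% of those under 50% and 18.9% of the rest rose. Without 1 variety 2 to 5 of the 9 rose, with 2 without St Edmund Pippin or Gala. When unique reads were tested in place of total reads, 15 of 54 genes rose and 1 fell, against 15.4% risen and 8.55% fallen of all tested genes. All 15 were among the 22, and 11 of them were in the TIR class, where 17 had risen in total reads.

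The median share of unique reads was alike in the 2 phenotypes, at 78.3% in russeted and 78.4% in waxy exocarp. Single genes differed more, in both directions and also among those that rose. MDP0000268494 had 21.9% unique reads in russeted and 42.2% in waxy exocarp, a difference of -20.3 percentage points, and its fold was smaller in unique than in total reads. MDP0000529326 had 34.3% unique reads in russeted and 22.2% in waxy exocarp, and its log2 fold change was 4.37 in unique reads, against 3.89 in total reads. The 7 rises absent in unique reads were those of MDP0000268494, MDP0000173034, MDP0000477424, MDP0000223201, MDP0000589425, MDP0000314241 and MDP0000527962, the last of which had too few unique reads to be tested.

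**Figure D4:**
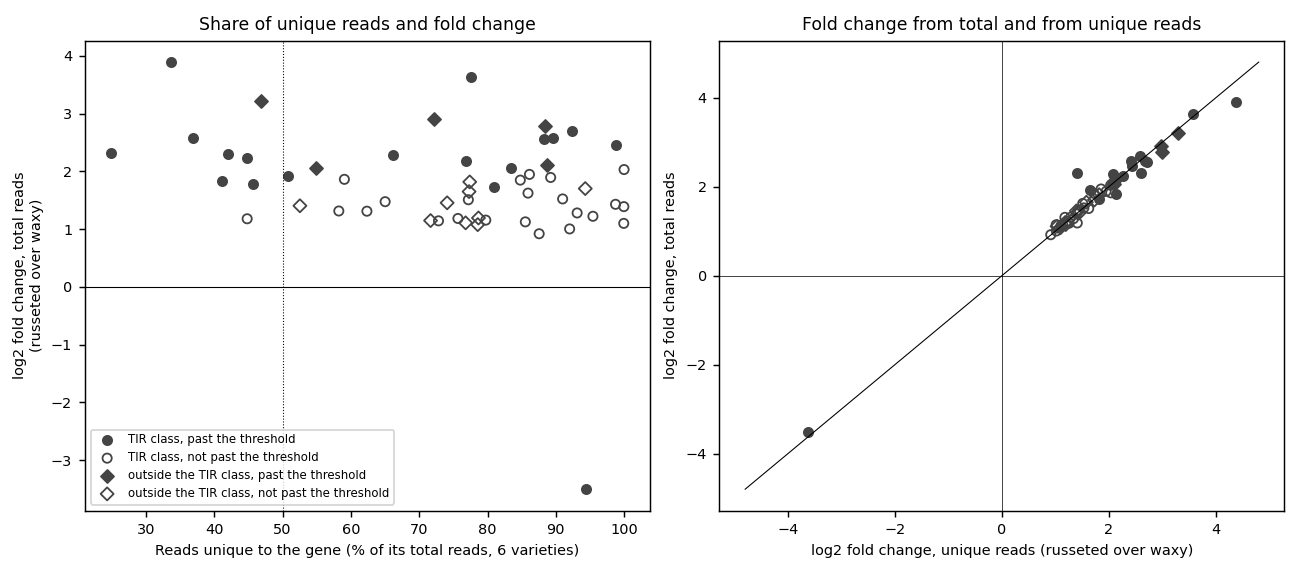
Left, log2 fold change from total reads against the share of reads unique to the gene, with a dotted line at 50%; right, log2 fold change from total reads against that from unique reads for the 54 genes tested with both, with the line of equality. Filled symbols are past the threshold in total reads, and 8 of the 9 genes left of the dotted line are filled; MDP0000268494 lies farthest above the line of equality.

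Resistance genes were of low abundance, and most of those that rose lay in the lower part of their range. Their median level over the 6 varieties was 4.32 RPKM (1.31 to 25.3), against 9.87 RPKM for all listed genes. Mean levels above 10 RPKM were reached in russeted exocarp by 13 of 55 resistance genes (23.6%) and by 56.5% of all listed genes, and in waxy exocarp by 3 of 55 (5.45%) and by 38.1% of all listed genes. Of the 28 resistance genes at or under the median level 18 rose (64.3%), with a median log2 fold change of 2.09, and of the 27 above it 4 rose (14.8%) and 1 fell, with a median of 1.28. In the other listed genes split at the same level, 39.7% of the lower and 13.9% of the higher tested genes rose. By length, 16 of the 28 shorter resistance genes rose (57.1%) and 6 of the 27 longer ones (22.2%), while the other listed genes split at the same length rose in 18.1% and 18.9%. Without 1 variety 7 to 11 of the less abundant (7 without Patte de Loup) and 2 to 4 of the more abundant resistance genes rose, as did 7 to 11 of the shorter (7 without Reinette Parmentier or Gala) and 1 to 5 of the longer ones (1 without Patte de Loup). Reads per gene, length and level were not separated in these genes, and their parts in the calls were not tested.

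Within each phenotype the varieties did not share out the highest values evenly, in these genes or in the other listed genes. Among russeted varieties Patte de Loup was highest in 26 of the 55 genes (47.3%), St Edmund Pippin in 20 (36.4%) and Reinette Parmentier in 9 (16.4%). In the other listed genes these shares were 37.5%, 34.7% and 27.8%. Reinette Parmentier was the lowest russeted variety in 27 genes (49.1%), against 35.4% of the other listed genes. Among waxy varieties AG94 and AF42 were highest in 23 genes each (41.8%) and Gala in 9 (16.4%). In the other listed genes AG94 was highest in 34.2%, AF42 in 42.9% and Gala in 23.0%. Gala was lowest in 28 genes (50.9%), against 44.4% of the other listed genes. Gala had the fewest mapped reads. The median deviation of Reinette Parmentier from the russeted mean, on the log2(RPKM + 0.5) scale, was -0.11 in the TIR class and -0.25 in the other resistance genes, against -0.02 over all listed genes. These are counts over 1 library per variety with no replicate, and the genes share reads, so no test was made. The 6 varieties fall into 2 phenotypes of 3, too few for a correlation within either.

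**Figure D5:**
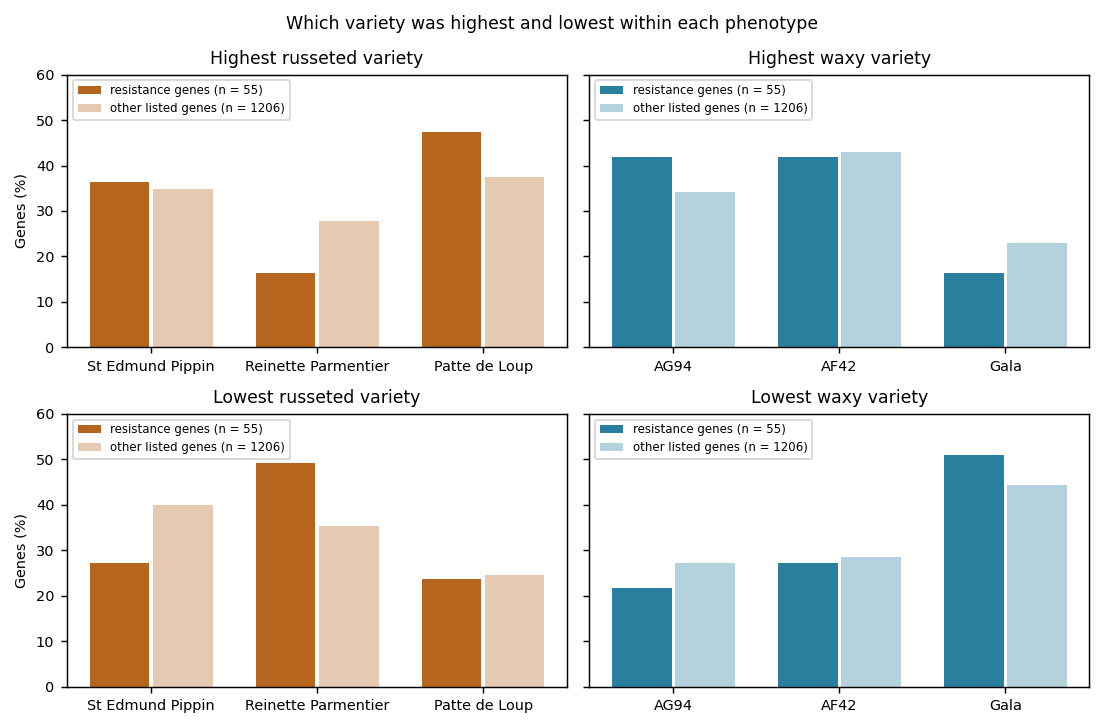
Percentage of genes in which each variety was the highest (top) or lowest (bottom) of its phenotype, for the 55 resistance genes (dark bars) and the 1206 other listed genes (light bars). Reinette Parmentier is the lowest russeted variety in 49.1% of resistance genes and 35.4% of other genes, and Gala the lowest waxy variety in 50.9% and 44.4%.

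A list of other immune pathway genes, outside the 55, held 29 gene models, found by Arabidopsis identifiers and by words such as WRKY, MLO, thaumatin and receptor-like protein, the last of which also took in receptor kinases of other functions. Of 24 identifiers of core immune genes on the list 2 were in the table, and the others were not analysed here. Of 28 tested, 7 rose (25%, against 19.2% of all tested genes), 1 fell and 20 did not pass. The log2 fold change was above 0 in 23 (82.1%, against 73.8% of all tested genes), with a median of 1.51. Under TMM scaling 2 rose and 4 fell, where 3.53% of all tested genes rose and 23.8% fell. Leaving out Reinette Parmentier, Patte de Loup or Gala gave 4 rises each.

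RBOHD (MDP0000262620), the oxidase that makes reactive oxygen in Arabidopsis immunity, was the most abundant of those that rose. It had 27.8, 35.3 and 45.1 RPKM in St Edmund Pippin, Reinette Parmentier and Patte de Loup, against 4.49, 3.45 and 2.59 RPKM in AG94, AF42 and Gala (log2 fold change 3.36 ± 0.53, SE, edgeR adjusted p = 0.00346). CRK29 (MDP0000190744), a cysteine-rich receptor kinase, had 2.10, 1.72 and 2.09 RPKM in the russeted varieties, against 0.16, 0.15 and 0.17 RPKM in AG94, AF42 and Gala, with 3 to 5 reads in each waxy library. It rose by 3.59 ± 0.54 on the log2 scale (SE). An S-locus lectin kinase gene (MDP0000300498) rose by 3.06 ± 0.63 and WRKY65 (MDP0000133918), a transcription factor gene, by 2.29 ± 0.52 on the log2 scale (SE). The WRKY65 call was lost without St Edmund Pippin (edgeR adjusted p = 0.0569) or AF42 (0.0631). The 1 that fell, MDP0000629887 of the family that holds pathogenesis-related protein 1, had 5.58, 2.21 and 8.25 RPKM in the russeted varieties, against 72.6, 50.8 and 24.1 RPKM in AG94, AF42 and Gala (log2 fold change -3.20 ± 0.61, SE, edgeR adjusted p = 0.00732). The other identifier found, SGT1B (MDP0000238851), a co-chaperone that NLR proteins need, had a log2 fold change of 1.26 ± 0.57 (SE, edgeR adjusted p = 0.285).

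In the authors' deposited table, 12 of the 55 resistance genes (21.8%) had a false discovery rate under 0.05, against 35.9% of all listed genes. That share counts both directions. Of the 12, 11 were higher and 1 lower in russeted exocarp. Over all listed genes 25.1% were higher and 10.8% lower. For rises alone, the authors' table thus gave 11 of the 55 genes against 25.1%, and edgeR 22 of the 55 against 19.2% of all tested genes. Of the 23 genes called here 7 were among those 12, all in the TIR class. The authors' deposited table gave MDP0000529326 a false discovery rate of 0.00133 and MDP0000268026, which edgeR did not call, 0.000251.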

How the data were processed

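Purified mRNA from 3 µg of total RNA of exocarp was made into TruSeq v2 libraries, per the labels' protocols; that kit does not mark strand. A single deposited table lists 1261 gene models. The authors analysed the reads in CLC Genomics Workbench 6.5, per the file headers. The sources used here do not give aligner settings or the genome build. Per the file headers the deposited read counts are total and unique gene reads, with RPKM values and phenotype means of them. The authors' comparison (Baggerley's test) is deposited as a signed fold score, its log2, a p-value and a false discovery rate; all genes had an absolute log2 of at least 1 and a rate up to 0.2. Deposited gene lengths were multiples of 3 in all 1261 genes, so they are coding lengths. Of the 55 identifiers 0 were found in the RefSeq gene table (other identifiers), and positions and sequences are not given. The main test was edgeR's quasi-likelihood test on total reads, 3 varieties against 3, two-sided (edgeR 4.0.16, R 4.3.3). Library sizes were the mapped reads recovered from reads, length and RPKM in genes with at least 200 reads. The low-count filter kept 1246 genes, all 55 resistance genes among them. P values were adjusted over 6449 genes, the number behind the authors' own adjustment, which takes every unlisted gene to have a larger p. A standard error is the fold change divided by the square root of F. Genes named are the fall, up to 8 rises per class with the smallest p, the 5 most abundant, the 3 with the lowest unique share, the 3 with the fewest reads and the RPW8 gene; in the immune list, up to 4 per direction. Others were named after their values were seen. Members and lists were chosen with earlier results of these data known. Alternatives were DESeq2 1.42.0, limma 3.58.1 on log2(RPKM + 0.5) and log2(RPKM + 0.1), TMM factors, unique reads, no filter, a replicate block, other member rules and leaving out each variety. The edgeR script was tested on simulated data. No library has a replicate, so the SDs and standard errors hold no separate measure of the spread within a variety.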

Additional observations from a re-analysis of the deposited data

How the results depend on the processing

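Counts of calls changed with the processing, while the class medians stayed above 0 in every alternative run. The authors had selected 54 of the 55 genes with a log2 of at least 1 toward russeted, on these same libraries. The direction of the medians therefore follows largely from that selection and is no separate support. With DESeq2 on mapped reads 43 resistance genes rose, 31 of the TIR class and 12 others, with 15 risen and 4 fallen immune list genes and 547 risen and 266 fallen genes in the table. With adjustment over the tested genes alone the numbers were 44, 32 and 12, with 16 and 4 and with 597 and 290. With TMM factors 3, 2 and 1 rose, with 2 risen and 4 fallen immune list genes and 44 (3.53%) and 296 (23.8%) in the table. The medians were 0.73 for all resistance genes, 0.77 for the TIR class and 0.66 for the others. With DESeq2's own size factors 6, 4 and 2 rose, with 3 and 6 and with 111 (8.82%) and 322 (25.6%), and the medians were 0.72, 0.76 and 0.63. With limma on log2(RPKM + 0.1) 8, 6 and 2 rose, against 12.8% of all genes. With limma on log2(RPKM + 0.5) 3 of the genes outside the TIR class rose and 2 immune list genes fell. Of all genes 19.7% rose and 11.8% fell there, and the medians of all resistance genes and of the TIR class were 1.45. Without the low-count filter 2 immune list genes fell, against 9.44% of all genes. With unique reads, where 15.4% of all tested genes rose, 11 TIR class genes rose, with a median of 1.63. Among resistance genes with at least 50% unique reads 14 rose, 10 of the TIR class, with a TIR median of 1.52. Of the other listed genes at that unique share 18.9% rose. The cause of these differences was not tested. MDP0000901201 changed sign, with a log2 fold change of -0.039 with TMM factors and of -0.057 with DESeq2's own size factors.

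Without 1 variety, 9 to 13 resistance genes rose and 0 to 1 fell, 6 to 11 of the TIR class rose and 0 to 1 fell, and 2 to 4 of the others rose and 0 fell. The single fall was lost without St Edmund Pippin. Medians ran from 1.58 to 1.81 for all, 1.59 to 1.81 for the TIR class and 1.42 to 1.90 for the others. Of the immune list 4 to 6 rose and 1 to 2 fell. Over all genes 134 to 194 rose (10.8% to 15.4%) and 67 to 105 fell (5.35% to 8.35%). Fits without a variety had fewer libraries. The labels number the libraries 1 to 3 in each phenotype, but these are different varieties, and same-numbered libraries did not deviate together (r of -0.085, -0.015 and -0.088 across genes). With the replicate number as a block 15 resistance genes rose, 11 of the TIR class, against 16.8% of all tested genes. Reads in waxy libraries, down to 1 for a gene, limit the precision of the largest folds.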
